A study of Homo sapiens with 8 samples.

Results

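Belinostat, an inhibitor of histone deacetylases, was given to U87 cells in 2 backgrounds, and the effect described here is the one that the backgrounds have in common. U87 is an established human glioblastoma line. The treated groups were BEL, control cells given 1 µM belinostat for 24 h, and ASIBEL, cells kept long-term on AsiDNA and given the same belinostat. The groups without belinostat, called untreated here, were DMSO, control cells given the solvent, and ASI, cells kept long-term on AsiDNA. AsiDNA, a short piece of double-stranded DNA, imitates a break and draws repair enzymes away from the genome. ASI and ASIBEL share that exposure. Its dose and length were not found in the sources used here, and it is not stated whether the ASI cells received DMSO. The labels call the cells MTU87 and LTAU87 without saying what the names stand for, and a difference between separately kept cells and an effect of AsiDNA cannot be told apart. Each group held 2 libraries of total RNA sequenced after ribosomal RNA was removed, which gave 4 treated libraries against 4 untreated ones.

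Reads per gene were fitted with 1 term for belinostat and 1 for AsiDNA, and the belinostat term is reported as a log2 fold change ± its standard error, treated over untreated. A gene was called higher or lower at an adjusted p under 0.05. Levels are in CPM, counts relative to the library's total after TMM scaling, with no correction for gene length. The genes of main interest were those whose 4 treated libraries all lay above, or all below, the 4 untreated ones. There were 6274 of them among 14741 genes tested and 58884 gene identifiers in the table, 3182 with all treated libraries above and 3092 with all below. The distance in log2 CPM between the nearest treated and the nearest untreated library is called the gap.

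Histone deacetylases remove acetyl groups from lysines of histones and of many other proteins, and work in corepressor complexes that lower transcription. Inhibitors such as belinostat block the zinc-dependent enzymes, so that acetylation builds up within hours, and large numbers of genes then move in both directions. In many tumour lines such inhibitors are known to stop the cell cycle and to turn on genes of other tissues.

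The libraries held 6057394 to 9699637 counts, so that 3 counts equalled 0.309 to 0.495 CPM. Separate cultures are not stated for the replicates, so the spread behind each p-value is that between these libraries and may be technical. The DMSO libraries differed most from each other: 11.1% of 8142 well measured genes differed by more than 1.5-fold between them, against 0.184% to 0.786% in the other groups, and DMSO replicate 2 lay apart from the other untreated libraries on the second principal component, toward BEL. Among markers of the line, VIM lay between 1340 and 6110 CPM and CD44 between 1510 and 2350 CPM (markers without TMM scaling), whereas the glial and stem cell markers GFAP and SOX2 lay at most at 0.542 CPM and at 0. Of 9 markers of other cell types, CD3E, CDH5 and KRT5 had no count, PTPRC had 1, and all 9 summed to 16.2 to 25.8 CPM with belinostat against 6.70 to 9.23 CPM without it, most of it PECAM1. The sense-intronic class, annotated transcripts within introns, held 0.128% and 0.142% of counts in BEL and 0.0561% and 0.0440% in ASIBEL, against 0.0570% and 0.113% in DMSO and 0.0556% and 0.0510% in ASI. With that share as a further model term, an alternative chosen after seeing the data, 4934 genes were called higher and 4590 lower.

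With belinostat 8552 of 14741 tested genes (58.0%) were called, in about equal numbers in each direction. All treated libraries lay above all untreated ones in 21.6% of the tested genes and below them in 21.0%. Of the calls on the fitted term, 4499 genes (30.5%) were higher and 4053 (27.5%) lower, 2206 (15.0%) and 1586 (10.8%) of them by at least 2-fold. Scaling by library size alone turned the split round, with 3651 higher and 4967 lower, so that 42.4% of calls were higher instead of 52.6%. The majority was also on the lower side with no filter on low counts (46.7% higher), among protein-coding genes only (48.8%) and without any single library of BEL or ASIBEL (48.1% to 49.2%). Under library size scaling the median log2 fold change of all genes was -0.08 instead of 0.06. The fold changes below are on the TMM scale.

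Separation of all 8 libraries and the fitted call were not the same thing. Of the genes without overlap, 3082 of 3182 above (20.9% of all tested) and 3000 of 3092 below (20.4%) were also called, which left 100 and 92 that were not. Another 2470 genes were called although a treated and an untreated library overlapped, 1417 of them higher and 1053 lower. The gap itself was mostly narrow, with a median of 0.40 among genes above and 0.39 among genes below. A gap of at least 1, that is at least 2-fold between the nearest libraries, was found for 590 genes above and 448 below. The wide gaps were on the side of the rises: 103 genes above against 43 below had a gap of at least 2, and 32 against 2 had a gap of at least 3. The nearest untreated library was DMSO replicate 2 in 29.4% of the genes above and in 53.3% of the genes below. Without DMSO replicate 2, 3874 genes lay above and 3903 below. Leaving out any other single library gave 3048 to 3358 above and 3196 to 3791 below, with fewer libraries to separate in each case.

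In terms of reads the genes without overlap held a large part of each library. Those above took 38.3% and 37.3% of all counts in BEL and 32.1% and 31.8% in ASIBEL, against 17.8% and 18.9% in DMSO and 17.6% and 17.6% in ASI. Those below took 11.5% and 11.8% in BEL and 13.5% and 13.9% in ASIBEL, against 26.5% and 25.9% in DMSO and 26.4% and 26.4% in ASI. The genes were chosen for this separation, so the shares describe its size and are no test. MALAT1 alone held 7.51% and 8.02% in BEL and 2.06% and 1.42% in ASIBEL, against 0.550% and 1.38% in DMSO and 0.443% and 0.403% in ASI. Without it the genes above took 30.8% and 29.3% in BEL and 30.0% and 30.4% in ASIBEL, against 17.2% and 17.5% in DMSO and 17.2% and 17.2% in ASI. These shares are still of all counts, with the reads of MALAT1 left in the total.

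The widest gap of all belonged to LOXL4, an enzyme of the lysyl oxidase family that crosslinks collagen and elastin (ENSG00000138131, chromosome 10, 98247690 to 98268250, GRCh38). It had 118 and 115 CPM in BEL and 153 and 151 CPM in ASIBEL, against 0.808 and 0.585 CPM in DMSO and 0.121 and 0.728 CPM in ASI. At 1 to 8 counts per untreated library it was close to silent without belinostat, and it was clearly expressed with it in both backgrounds. The log2 fold change was 7.82 ± 0.23 (edgeR adjusted p = 2.99e-09). Its promoter is printed because no other gene separated the groups as widely. The 300 bases from 250 before to 50 after the RefSeq gene start (chr10:98268145-98268444, GRCh38.p14, minus strand, 5′ to 3′) hold the GC box GGGCGG 7 times over both strands, in capitals. This element, to which Sp1 family factors bind, was in 70.4% of the 9771 matched promoters of tested coding genes, in 70.4% of those called higher and in 70.9% of those called lower.
LOXL4: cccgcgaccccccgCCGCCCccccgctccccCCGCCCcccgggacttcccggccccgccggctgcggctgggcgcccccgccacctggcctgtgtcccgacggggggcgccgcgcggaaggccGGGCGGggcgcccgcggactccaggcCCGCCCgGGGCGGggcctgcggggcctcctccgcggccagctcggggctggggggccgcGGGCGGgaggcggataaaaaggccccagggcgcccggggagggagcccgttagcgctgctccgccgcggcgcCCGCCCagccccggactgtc

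SYP, a membrane protein of synaptic vesicles (ENSG00000102003, chromosome X, 49187804 to 49200259), had 54.6 and 51.0 CPM in BEL and 66.2 and 74.4 CPM in ASIBEL, against 1.41 and 1.46 CPM in DMSO and 1.21 and 1.46 CPM in ASI. VSIR, an immune checkpoint receptor also known as VISTA (ENSG00000107738, chromosome 10, 71747559 to 71773498), had 26.5 and 27.9 CPM in BEL and 43.4 and 36.0 CPM in ASIBEL, against 0.707 and 0.975 CPM in DMSO and 0.362 and 0.291 CPM in ASI. Both were barely expressed without belinostat, and the treated libraries of ASIBEL were above those of BEL. Their log2 fold changes were 5.43 ± 0.16 for SYP and 5.68 ± 0.27 for VSIR. FBXO32, a ubiquitin ligase subunit known as atrogin-1 from wasting muscle (ENSG00000156804, chromosome 8, 123497889 to 123541206), differed in that it was well expressed before treatment. It had 807 and 779.6 CPM in BEL and 635 and 629 CPM in ASIBEL, against 30.9 and 20.6 CPM in DMSO and 23.1 and 20.7 CPM in ASI (log2 fold change 4.90 ± 0.15).

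TES, a LIM-domain protein of focal adhesions, had 89.2 and 81.8 CPM in BEL and 88.1 and 97.1 CPM in ASIBEL, against 4.85 and 4.19 CPM in DMSO and 5.07 and 4.07 CPM in ASI, a narrow range within each side. CPA4, a secreted carboxypeptidase first described as a gene induced by deacetylase inhibitors, had 449 and 445 CPM in BEL and 435 and 416 CPM in ASIBEL, against 28.5 and 32.1 CPM in DMSO and 38.3 and 35.9 CPM in ASI. These are rises of 4.28 ± 0.12 and 3.70 ± 0.12 on the log2 scale, nearly the same in both backgrounds (3.88 ± 0.13 in BEL over DMSO and 3.52 ± 0.13 in ASIBEL over ASI for CPA4). DHRS2, a short-chain dehydrogenase known to be raised by deacetylase inhibitors, had 88.3 and 63.0 CPM in BEL and 23.7 and 23.4 CPM in ASIBEL, against 1.11 and 1.85 CPM in DMSO and 1.21 and 2.18 CPM in ASI. Its BEL libraries lay above its ASIBEL libraries, and all 4 lay above every untreated one (log2 fold change 4.92 ± 0.32).

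The remaining widest rises, among genes with a mean log2 CPM of at least 2, came from varied families. SLC12A8, a transporter of the cation-chloride family, was at 82.3 to 174 CPM with belinostat against 3.62 to 6.46 CPM without it. ATP8A1, a flippase that moves phospholipids across the membrane, was at 27.5 to 43.9 CPM with belinostat against 1.75 to 2.05 CPM without it. CCDC69, a coiled-coil protein of the mitotic spindle midzone, was at 12.7 to 24.6 CPM with belinostat against 0.585 to 1.01 CPM without it. SERPINI1, the protease inhibitor neuroserpin, was at 14.0 to 20.9 CPM with belinostat against 0.483 to 1.16 CPM without it. None of these had an untreated library above 6.46 CPM, and all rose by at least 4.12 on the log2 scale.

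**Figure D1:**
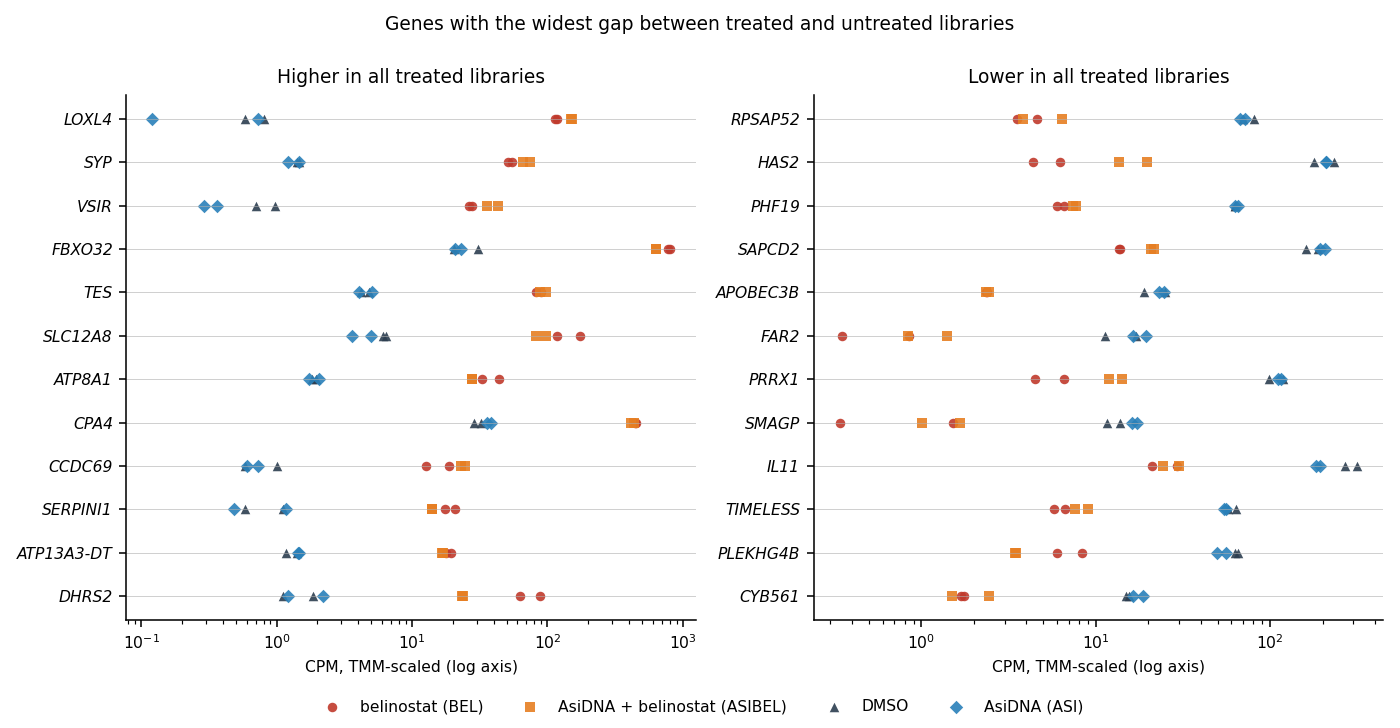
Scaled CPM (log axis) of the 12 genes with the widest gap upward (left) and the 12 with the widest gap downward (right), 1 point per library, with belinostat libraries in red and orange and untreated ones in dark and light blue. The ranking is among called, named genes with a mean log2 CPM of at least 2. In LOXL4 the treated libraries lie between 115 and 153 CPM and the untreated ones at or below 0.808 CPM, and in HAS2 the treated libraries lie at or below 19.6 CPM and the untreated ones at or above 178 CPM.

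On the falling side the widest gap among coding genes was that of HAS2, which makes the matrix polysaccharide hyaluronan (ENSG00000170961, chromosome 8, 121612116 to 121641390). It had 4.34 and 6.27 CPM in BEL and 13.5 and 19.6 CPM in ASIBEL, against 234 and 178 CPM in DMSO and 211 and 209 CPM in ASI. The untreated libraries lay close together, and the fall was deeper in BEL than in ASIBEL (log2 fold change -4.36 ± 0.30, adjusted p = 5.69e-07). PRRX1, a homeobox factor of mesenchymal cells (ENSG00000116132, chromosome 1, 170662728 to 170739419), showed the same order, with 4.46 and 6.61 CPM in BEL and 11.8 and 14.1 CPM in ASIBEL, against 119 and 98.6 CPM in DMSO and 115 and 111 CPM in ASI. It fell by 3.65 ± 0.23 on the log2 scale.

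PHF19, a Polycomb-like protein that helps bring PRC2 to chromatin (ENSG00000119403, chromosome 9, 120855652 to 120894896), had 5.98 and 6.61 CPM in BEL and 7.68 and 7.43 CPM in ASIBEL, against 62.7 and 62.8 CPM in DMSO and 65.2 and 63.2 CPM in ASI. All untreated libraries were within 3 CPM of each other and all treated ones within 2 CPM, and PHF19 fell by 3.20 ± 0.11. SAPCD2, a regulator of spindle orientation, had 13.7 and 13.5 CPM in BEL and 21.5 and 20.6 CPM in ASIBEL, against 189 and 162 CPM in DMSO and 194 and 207 CPM in ASI. TIMELESS, a protein of the replication fork, was at 5.76 to 9.01 CPM with belinostat against 54.4 to 63.4 CPM without it. APOBEC3B, a cytidine deaminase that edits single-stranded DNA and is known as a source of mutations in tumours, had 2.35 and 2.37 CPM in BEL and 2.34 and 2.43 CPM in ASIBEL, against 25.0 and 19.0 CPM in DMSO and 23.1 and 24.6 CPM in ASI. Its 4 treated libraries were nearly identical (log2 fold change -3.26 ± 0.17).

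IL11, a cytokine of the interleukin 6 family, had 21.0 and 29.3 CPM in BEL and 24.4 and 30.1 CPM in ASIBEL, against 317 and 270.0 CPM in DMSO and 185 and 193 CPM in ASI. Here the untreated groups also differed, with ASI below DMSO, and the treated libraries all lay at or below 30.1 CPM (log2 fold change -3.17 ± 0.18). FAR2, a reductase that makes fatty alcohols, was at 0.352 to 1.41 CPM with belinostat against 11.3 to 19.4 CPM without it, and its lowest library held 3 counts. SMAGP, a small transmembrane protein of epithelia, was at 0.339 to 1.66 CPM with belinostat against 11.6 to 17.2 CPM without it. PLEKHG4B, a guanine exchange factor, was at 3.46 to 8.30 CPM with belinostat against 49.7 to 65.6 CPM without it. CYB561, a transmembrane cytochrome, was at 1.50 to 2.43 CPM with belinostat against 14.8 to 18.8 CPM without it. These 4 fell by at least 3.12 on the log2 scale.

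Noncoding genes with names were separated in the same way, although the strand setting of the counting was not found in the sources used here, and reads of a gene and of an antisense partner or a parent gene could not be told apart. ATP13A3-DT, a transcript that starts beside ATP13A3, was at 16.7 to 19.2 CPM with belinostat against 1.17 to 1.46 CPM without it. TMEM44-AS1 was at 5.89 to 17.7 CPM with belinostat against 1.16 to 1.36 CPM without it. MKLN1-AS was at 17.9 to 23.2 CPM with belinostat against 2.83 to 4.65 CPM without it. The pseudogene transcript RPLP0P2 was at 13.9 to 21.0 CPM with belinostat against 2.22 to 2.78 CPM without it. Downward the widest gap of any gene was that of RPSAP52, an RNA known to overlap HMGA2 (ENSG00000241749, chromosome 12, 65758020 to 65826997). It had 3.52 and 4.57 CPM in BEL and 3.84 and 6.40 CPM in ASIBEL, against 69.9 and 81.3 CPM in DMSO and 71.6 and 67.7 CPM in ASI, a log2 fold change of -3.98 ± 0.17. LASTR was at 0.939 to 1.86 CPM with belinostat against 8.77 to 11.3 CPM without it. ZNF232-AS1 was at 1.29 to 3.20 CPM with belinostat against 8.29 to 9.60 CPM without it. PPP1R14B-AS1 was at 5.28 to 9.86 CPM with belinostat against 21.0 to 23.7 CPM without it.

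Some genes were almost without reads in untreated cells. Of the genes above, 62 had at most 3 counts over the 4 untreated libraries together, and of the genes below, 10 had at most 3 counts over the treated ones. The 6 named genes of that first kind with the most treated counts were chosen after their values were seen, and their ratios carry intervals for counting error only. SHOC1, a protein of meiotic recombination, gave 65 and 50 counts in BEL and 12 and 32 in ASIBEL, against 1 count in all untreated libraries, a ratio of 181 (exact 95% interval 32.0 to 7180). FXYD7, a small regulator of the sodium pump in neurons, gave 110 counts against 0, at least 41.6-fold higher if 3 counts over the untreated group are taken as the floor. BCAM, an adhesion receptor for laminin, gave 146 against 2 (ratio 82.9, 22.5 to 691). TMPRSS9, a membrane protease, gave 151 against 2 (ratio 85.8, 23.3 to 715). SLC25A27, a mitochondrial carrier found in brain, gave 109 against 2 (ratio 61.9, 16.7 to 518). SLC12A5-AS1 gave 92 against 1 (ratio 105, 18.3 to 4170). All 6 had counts in each of the 4 treated libraries, which follows from the rule that chose them.

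Other genes mattered by the number of reads they took, and those named here were chosen after their values were seen. FN1, the matrix protein fibronectin, had 33189 and 27767 CPM in BEL and 32832 and 32749 CPM in ASIBEL, against 14031 and 13021 CPM in DMSO and 12935 and 13656 CPM in ASI. Its treated libraries lay at about double the untreated ones in both backgrounds (log2 fold change 1.24 ± 0.15). PLOD2, which hydroxylates collagen lysines for crosslinks, had 7491 and 6860.3 CPM in BEL and 7976 and 8374 CPM in ASIBEL, against 1899.5 and 1593 CPM in DMSO and 1719.8 and 1642 CPM in ASI (log2 fold change 2.16 ± 0.13). AKR1B1, an aldose reductase, had 3484 and 3274 CPM in BEL and 3038 and 3165 CPM in ASIBEL, against 844 and 581 CPM in DMSO and 819 and 855 CPM in ASI. TFPI2, a protease inhibitor, was at 5193 to 8026 CPM with belinostat against 1964 to 2726 CPM without it. ERRFI1, a feedback inhibitor of the EGF receptor, was at 2827 to 3521 CPM with belinostat against 1078 to 1382 CPM without it. TGM2, a transglutaminase, was at 1923 to 2965 CPM with belinostat against 467 to 625 CPM without it. Downward, AHNAK, a giant scaffold protein, was at 797 to 1074 CPM with belinostat against 2477 to 2690.3 CPM without it. TUBA1B, the main alpha tubulin of dividing cells, was at 147 to 358 CPM with belinostat against 1036 to 1466 CPM without it. TUBB4B, a beta tubulin, was at 178 to 374 CPM with belinostat against 719.7 to 1099.8 CPM without it. The tropomyosin TPM4 was at 413 to 734 CPM with belinostat against 983 to 1417 CPM without it. The chaperone HSPA8 was at 552 to 1141 CPM with belinostat against 1366 to 2108 CPM without it.

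The nuclear noncoding RNA MALAT1 was separated only narrowly. It had 77860.0 and 82323 CPM in BEL and 22137 and 15162 CPM in ASIBEL, against 5393 and 12377 CPM in DMSO and 4312 and 3933 CPM in ASI, a gap of 0.29, and its fitted change was 2.68 ± 0.30 (adjusted p = 1.97e-05). The BEL libraries stood far above the ASIBEL libraries, and DMSO replicate 2 was the nearest untreated library. NEAT1, its neighbour, had 48386 and 55034 CPM in BEL and 11313 and 6837 CPM in ASIBEL, against 3536 and 12920.0 CPM in DMSO and 3010.5 and 2785 CPM in ASI. Its groups overlapped, since DMSO replicate 2 lay above both ASIBEL libraries, although the fitted change was 2.15 ± 0.37 (adjusted p = 0.000441).

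The belinostat effect had the same direction in both backgrounds for most genes and was larger without AsiDNA for most. The comparison of BEL with DMSO and that of ASIBEL with ASI share no library. BEL over DMSO gave 4395 genes higher (29.8%) and 4071 lower (27.6%), and ASIBEL over ASI gave 3199 higher (21.7%) and 3120 lower (21.2%). Over the 14741 tested genes the log2 fold changes had the same sign in 11729 (79.6%), with a Pearson correlation of 0.81 across genes, which are not independent replicates. Genes above all untreated libraries had a median log2 fold change of 1.07 in BEL over DMSO and 0.94 in ASIBEL over ASI. For genes below, the medians were -1.04 and -0.86. The effect was the larger one without AsiDNA in 9089 of all 14741 genes, in 1946 of 3182 genes above and in 2088 of 3092 below. Both BEL libraries lay beyond both ASIBEL libraries, farther from the untreated ones, in 1375 genes above and 1569 below, and the reverse held for 907 and 548. A change of at least 2-fold in each background was found for 1284 genes above and 1086 below.

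**Figure D2:**
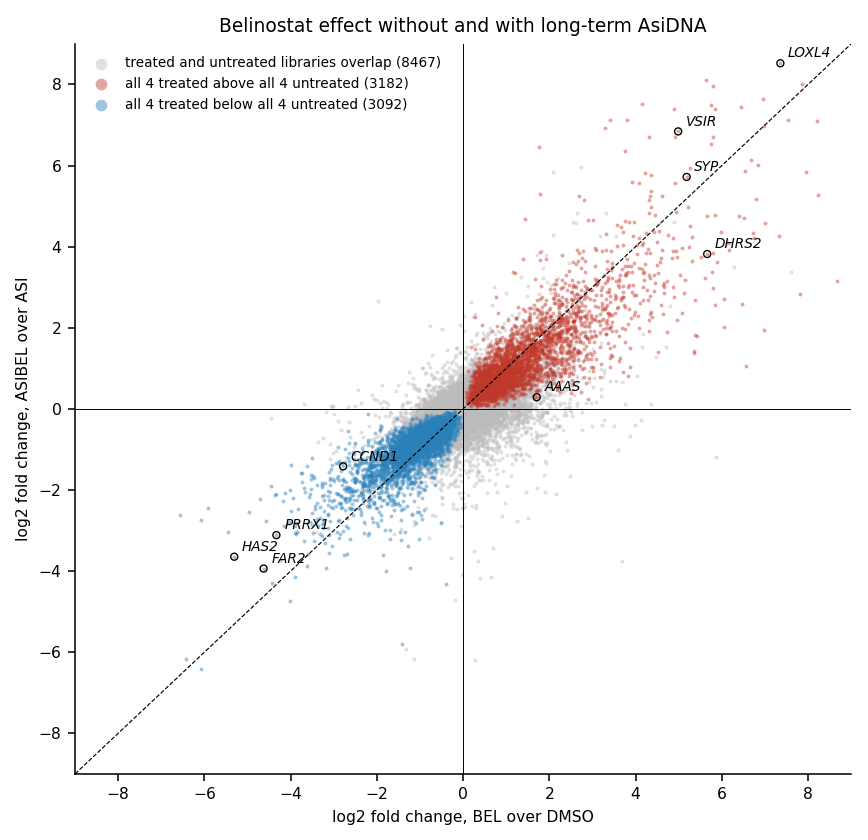
Log2 fold change of every tested gene in BEL over DMSO (horizontal) and in ASIBEL over ASI (vertical), with genes whose treated libraries all lie above the untreated ones in red, all below in blue and overlapping in grey, and the line of equal change dashed. The red and blue points fall into 2 quadrants because of how they were chosen, and AAAS lies far below the dashed line.

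Whether the effect differed between the backgrounds was tested with an interaction term, the ASIBEL over ASI change minus the BEL over DMSO change. At an adjusted p under 0.05 it was called for 1 gene (0.00678%), and an unadjusted p under 0.05 was found for 3203 genes (21.7%). The count of called genes rested on single libraries: it was 5290 without DMSO replicate 2, 968 without DMSO replicate 1, 1 without BEL replicate 2 and 0 without any other library. It was also 614 with DESeq2. The called gene was AAAS, a nuclear pore protein (ENSG00000094914, chromosome 12, 53307456 to 53324864), which had 117 and 117 CPM in BEL and 46.6 and 43.5 CPM in ASIBEL, against 33.2 and 38.2 CPM in DMSO and 38.6 and 35.1 CPM in ASI. It was high in BEL and only slightly above the untreated range in ASIBEL, with log2 fold changes of 1.71 ± 0.13 and 0.29 ± 0.14 and an interaction of -1.42 ± 0.19 (adjusted p = 0.0439). Leaving out any 1 library of ASI, ASIBEL or BEL raised that adjusted p to between 0.147 and 0.344.

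Among genes without overlap the next smallest interaction p-values, none of them below 0.05 after adjustment, were those of 4 genes. CCND1, the cyclin that drives entry into the cell cycle, had 143 and 165 CPM in BEL and 436 and 433 CPM in ASIBEL, against 1226 and 891 CPM in DMSO and 1181 and 1142 CPM in ASI. On the pooled term it fell by 2.10 ± 0.25, and the levels of BEL lay well under those of ASIBEL. ALPK2, an alpha kinase, had 83.3 and 91.8 CPM in BEL and 33.9 and 33.5 CPM in ASIBEL, against 24.5 and 27.0 CPM in DMSO and 23.5 and 25.8 CPM in ASI. The histone gene H2BC17 was at 3.17 to 19.6 CPM with belinostat against 49.2 to 86.0 CPM without it. H2AC12 was at 3.05 to 24.0 CPM with belinostat against 48.4 to 104 CPM without it, and both were lowest in BEL. Opposite signs in the 2 backgrounds were found for 21 of the 8552 genes called on the pooled term, and each of the 21 had an unadjusted interaction p under 0.05. With opposite signs the difference between the 2 effects is larger in size than their sum. A small interaction p was thus largely given by the pooled call and is no separate result. The 5 of the 21 genes with the smallest interaction p were EBP, SDHAP4, RPL13, KHDC4 and TMEM234. RPL13, a ribosomal protein, had 232 and 236 CPM in BEL and 477 and 539 CPM in ASIBEL, against 509.6 and 377 CPM in DMSO and 509 and 508 CPM in ASI, low in BEL alone. EBP, an isomerase of cholesterol synthesis, had 94.9 and 83.8 CPM in BEL and 48.2 and 40.0 CPM in ASIBEL, against 42.6 and 40.9 CPM in DMSO and 44.7 and 47.9 CPM in ASI, high in BEL alone. The pooled call of each of the 5 was lost when some single library was left out, and their adjusted p lay between 0.0330 and 0.0451.

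The targets of the drug did not change alike. HDAC3, the catalytic subunit of the NCOR and SMRT corepressors, had 215 and 190.2 CPM in BEL and 194 and 181 CPM in ASIBEL, against 68.5 and 64.7 CPM in DMSO and 70.5 and 74.9 CPM in ASI. Every treated library was at more than 2 times the level of every untreated one (log2 fold change 1.49 ± 0.10, adjusted p = 5.07e-07). HDAC5, a class II enzyme that moves between nucleus and cytoplasm, was at 46.6 to 53.1 CPM with belinostat against 16.8 to 19.7 CPM without it. HDAC8 was at 33.4 to 58.3 CPM with belinostat against 17.6 to 32.3 CPM without it, with a gap of only 0.05. HDAC1 had 64.5 and 62.0 CPM in BEL and 60.7 and 63.1 CPM in ASIBEL, against 65.0 and 60.1 CPM in DMSO and 78.1 and 73.0 CPM in ASI, a log2 fold change of -0.14 ± 0.10 that was not called (adjusted p = 0.263). HDAC2 was at -0.03 ± 0.10 (adjusted p = 0.822) and the tubulin deacetylase HDAC6 at 0.27 ± 0.16 (adjusted p = 0.171), neither called. Of 17 tested deacetylases and sirtuins 6 were higher, near the 30.5% of all genes, among them the mitochondrial SIRT4 at 1.54 to 2.37 CPM with belinostat against 0.146 to 0.404 CPM without it. In the other direction 4 were lower. SIRT1, a deacetylase that depends on NAD, fell by 1.31 ± 0.16 and the class II enzyme HDAC7 fell by 0.61 ± 0.12.

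Of 23 tested members of deacetylase complexes 7 rose and 8 fell, near the shares over all genes (30.5% and 27.5%). MBD3, a subunit of the NuRD complex, fell by 1.06 ± 0.11, and its partners MTA2 (-0.60 ± 0.09) and CHD3 (-0.76 ± 0.11) also fell. Of further NuRD genes MTA1, MBD2 and GATAD2A were also called lower, whereas CHD4 rose by 0.73 ± 0.13 and GATAD2B by 0.50 ± 0.12. The libraries of MTA1, MBD2 and GATAD2B overlapped. SIN3A, a scaffold of another deacetylase complex, rose by 0.64 ± 0.09. MIDEAS, a subunit of the mitotic deacetylase complex, rose by 0.76 ± 0.12. Of 12 acetyltransferases 1 rose and 5 fell (3 without ASI replicate 2), where 30.5% of all genes rose and 27.5% fell. KAT6B, which acetylates histone H3, was at 15.9 to 22.4 CPM with belinostat against 47.1 to 59.5 CPM without it. CREBBP, the CBP coactivator, was at 16.9 to 24.6 CPM with belinostat against 36.4 to 54.1 CPM without it. Of 14 genes of acetyl-lysine readers and of the elongation factor P-TEFb 4 rose and 4 fell (2 without ASI replicate 2 or DMSO replicate 2), again near those shares. MEPCE, which caps and stabilises the 7SK RNA that holds P-TEFb inactive, was at 7.63 to 18.6 CPM with belinostat against 48.1 to 58.1 CPM without it. ELL2, a subunit of the super elongation complex, rose by 1.07 ± 0.13 and AFF1, its scaffold, by 0.74 ± 0.09.

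Polycomb genes, which maintain silent chromatin, had 6 of 18 members higher and 6 lower, near the 30.5% and 27.5% over all genes. Besides PHF19, the methyltransferase EZH2 was lower, at 67.1 to 106 CPM with belinostat against 147 to 192 CPM without it. BMI1, a subunit of PRC1, fell by 0.63 ± 0.12 and CBX8 fell by 1.04 ± 0.21. RING1, the ubiquitin ligase of PRC1, rose by 1.28 ± 0.13 and JARID2, a cofactor of PRC2, by 0.97 ± 0.13.

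Replication-dependent histone genes, which are transcribed in S phase and supply the bulk of new nucleosomes, were lower almost without exception. Of 60 listed genes with an entry, 50 were tested, of which 49 were called lower and none higher, against 27.5% and 30.5% of all genes. In 39 of the 50 all treated libraries lay below all untreated ones, which held for 21.0% of all genes. H2BC11 had 2.46 and 2.20 CPM in BEL and 11.2 and 15.0 CPM in ASIBEL, against 75.9 and 36.9 CPM in DMSO and 89.2 and 90.5 CPM in ASI. H2BC14 had 2.23 and 2.71 CPM in BEL and 9.01 and 8.45 CPM in ASIBEL, against 44.9 and 25.3 CPM in DMSO and 45.4 and 51.4 CPM in ASI. The level in BEL was the lowest of the 4 groups in both, and DMSO replicate 2 lay below the other untreated libraries. H2BC18 was at 15.2 to 32.9 CPM with belinostat against 63.6 to 123 CPM without it. H2BC8 was at 8.64 to 31.6 CPM with belinostat against 56.9 to 114 CPM without it. The list's median log2 fold change was -2.20, with -3.09 in BEL over DMSO and -1.66 in ASIBEL over ASI. An unadjusted interaction p under 0.05 was found for 45 of the 50, against 21.7% of all genes, and an adjusted one for none. Without DMSO replicate 1 a single member was higher. Because the copies are nearly identical, reads may be divided between them and the value of a single copy is uncertain. Fewer cells in S phase and less RNA per cell cannot be told apart in bulk RNA.

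Of 10 replacement histones, which are also made outside S phase, 2 were higher and 4 lower, beside 30.5% and 27.5% of all genes. H2AJ rose by 2.74 ± 0.38 from levels near or below 1.89 CPM. The centromere histone CENPA was at 13.4 to 16.9 CPM with belinostat against 46.9 to 58.6 CPM without it. H2AZ1, a variant found at promoters, was at 98.6 to 169.5 CPM with belinostat against 313 to 444 CPM without it. H2AX, whose phosphorylation marks DNA breaks, fell by 1.45 ± 0.25 and H3-3B fell by 0.85 ± 0.11.

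Genes of G2 and mitosis fell together. Of 42 tested members 41 were called lower and none higher, and the same number, 41, had every treated library below every untreated one (27.5% and 21.0% of all genes), with a median log2 fold change of -1.45 against 0.06 over all genes. The medians were -1.58 in BEL over DMSO and -1.43 in ASIBEL over ASI. CCNB1, the mitotic cyclin B1, had 56.0 and 57.6 CPM in BEL and 76.6 and 96.8 CPM in ASIBEL, against 374 and 292 CPM in DMSO and 379 and 385 CPM in ASI (log2 fold change -2.34 ± 0.13). KIF20A, a kinesin of the cleavage furrow, had 41.9 and 52.2 CPM in BEL and 54.4 and 60.1 CPM in ASIBEL, against 254 and 213 CPM in DMSO and 265 and 272 CPM in ASI. MKI67, the proliferation marker Ki-67, had 185 and 173 CPM in BEL and 175 and 146 CPM in ASIBEL, against 753 and 780.2 CPM in DMSO and 551 and 593 CPM in ASI. The untreated libraries of MKI67 were lower in ASI than in DMSO, and the treated ones were not lower in BEL than in ASIBEL. PLK1, the polo-like kinase of mitotic entry, had 30.4 and 34.5 CPM in BEL and 46.6 and 43.0 CPM in ASIBEL, against 165 and 116 CPM in DMSO and 167 and 175 CPM in ASI. The exception, CKS2, a cofactor of cyclin-dependent kinases, was at -0.14 ± 0.10 (adjusted p = 0.236).

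Promoters of 3 of these genes are printed because many of the falling mitotic genes share 2 short elements in this window. Capitals mark the cell cycle homology region TTTGAA, through which the DREAM and B-MYB complexes are known to act, and the NF-Y box CCAAT, each searched on both strands. The sequences are RefSeq promoters of GRCh38.p14, 5′ to 3′ on the gene's strand, for MKI67 (chr10:128126374-128126673, minus strand), PLK1 (chr16:23678639-23678938, plus strand) and CCNB1 (chr5:69166900-69167199, plus strand).
MKI67: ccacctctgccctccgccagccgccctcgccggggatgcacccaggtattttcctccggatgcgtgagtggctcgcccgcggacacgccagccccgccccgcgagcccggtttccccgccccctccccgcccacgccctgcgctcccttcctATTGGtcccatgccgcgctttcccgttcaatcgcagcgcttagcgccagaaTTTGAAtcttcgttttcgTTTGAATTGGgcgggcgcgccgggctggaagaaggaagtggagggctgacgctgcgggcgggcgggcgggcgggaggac
PLK1: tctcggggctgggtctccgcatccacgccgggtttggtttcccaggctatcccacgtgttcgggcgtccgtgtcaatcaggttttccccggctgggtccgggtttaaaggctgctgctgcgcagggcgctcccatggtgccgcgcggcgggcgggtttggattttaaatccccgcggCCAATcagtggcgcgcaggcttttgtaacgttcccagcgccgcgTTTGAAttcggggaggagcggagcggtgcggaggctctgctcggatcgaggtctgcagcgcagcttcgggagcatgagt
CCNB1: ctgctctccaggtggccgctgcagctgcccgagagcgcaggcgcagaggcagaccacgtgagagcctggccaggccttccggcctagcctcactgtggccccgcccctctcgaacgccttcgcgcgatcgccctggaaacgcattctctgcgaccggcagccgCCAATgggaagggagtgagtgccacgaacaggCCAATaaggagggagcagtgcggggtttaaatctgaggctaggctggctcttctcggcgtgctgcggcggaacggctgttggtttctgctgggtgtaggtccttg
In MKI67 the first element starts 47 and 29 bases before the gene start, and the copy nearer to the start shares 1 base with a CCAAT on the other strand. In PLK1 it starts 29 bases before the start, and in CCNB1 the 6 letters were not found in this window.

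Over the list 25 of 36 matched G2 and mitosis promoters (69.4%) held TTTGAA, against 9.98% of all 9771 matched promoters of tested coding genes, and 75.0% held CCAAT against 37.4%. Both were present in 58.3% against 4.33%, and TTTGAA lay within 50 bases of the start in 58.3% against 2.80%. Among all genes without overlap TTTGAA was in 14.0% of the promoters of genes below and in 8.68% of those of genes above. The histone promoters held CCAAT in 86.7% and TTTGAA in 35.6% of 45. The E2F element TTCCCGCC was in 30.6% of 36 DNA replication promoters, against 5.29% of all. TTCCCGCC and the GC box can share letters on opposite strands. These matches describe sequence and are not evidence that a factor was bound.

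**Figure D3:**
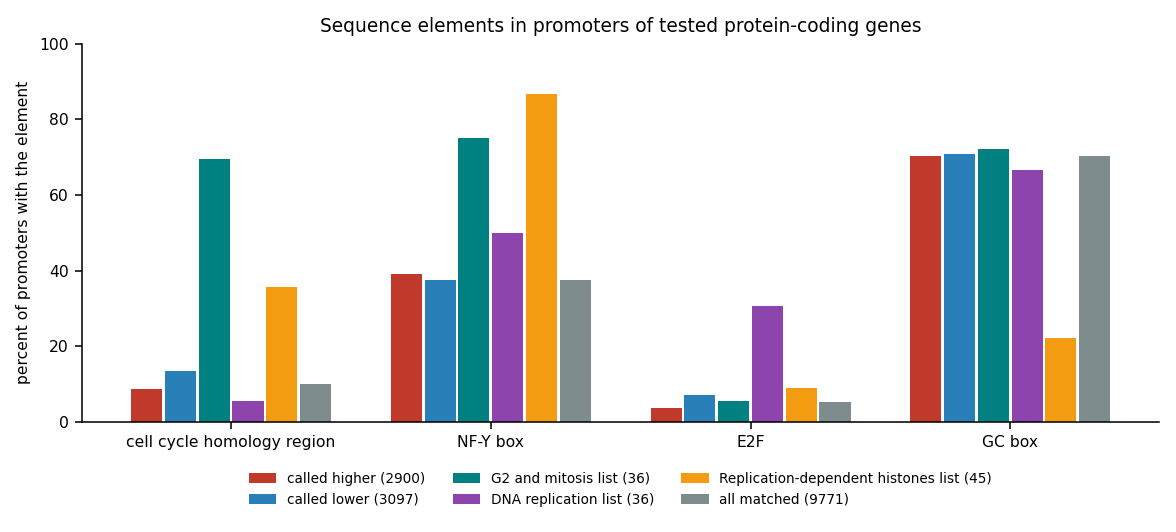
Percent of promoters (250 bases before to 50 after the gene start) that hold each of 4 short elements on either strand, for genes called higher or lower, 3 gene lists and all matched promoters, with the number of promoters in brackets. The cell cycle homology region is in 69.4% of G2 and mitosis promoters and 9.98% of all, and the GC box is at 70.4% to 70.9% in genes called higher, called lower and all.

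DNA replication genes were lower in the same way, with 42 of 43 called lower (27.5% of all genes), none higher, and a median of -1.22. In 38 of them the treated libraries lay below all untreated ones (21.0% of all genes). UHRF1, which copies DNA methylation behind the fork, had 29.6 and 29.3 CPM in BEL and 35.5 and 31.5 CPM in ASIBEL, against 136 and 155 CPM in DMSO and 133 and 135 CPM in ASI. RRM2, the regulated subunit of ribonucleotide reductase, had 147 and 154 CPM in BEL and 247 and 279 CPM in ASIBEL, against 977 and 708 CPM in DMSO and 887 and 852 CPM in ASI. TYMS, the thymidylate synthase, was at 12.9 to 20.7 CPM with belinostat against 63.9 to 103 CPM without it. GINS2, a subunit of the replicative helicase, was at 12.8 to 21.9 CPM with belinostat against 45.5 to 53.5 CPM without it. The single member not called was the primase subunit PRIM2, at 0.10 ± 0.13. In RRM2 the ASIBEL libraries were above the BEL libraries, and the list's medians were -1.33 in BEL over DMSO and -0.91 in ASIBEL over ASI.

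Genes that guard the fork and signal damage had 13 of 19 members lower and 1 higher, against 27.5% and 30.5% of all genes. CLSPN, which couples the kinase ATR to CHEK1, had 14.5 and 14.9 CPM in BEL and 18.5 and 21.4 CPM in ASIBEL, against 101 and 91.4 CPM in DMSO and 95.4 and 101 CPM in ASI (log2 fold change -2.50 ± 0.12). CHEK1 itself was at 8.80 to 19.6 CPM with belinostat against 34.2 to 42.5 CPM without it. PKMYT1, which holds CDK1 inactive, was at 10.2 to 14.7 CPM with belinostat against 38.4 to 52.7 CPM without it. RAD9A, a subunit of the checkpoint clamp, was the member that rose, by 1.49 ± 0.23. It had 46.8 and 38.3 CPM in BEL and 17.0 and 14.9 CPM in ASIBEL, against 8.38 and 13.4 CPM in DMSO and 8.81 and 8.29 CPM in ASI, with BEL far above ASIBEL.

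Homologous recombination, the repair of breaks from a sister copy, had 15 of 20 members lower, against 27.5% of all genes. BRCA1, which helps load the recombinase, had 38.6 and 40.1 CPM in BEL and 46.4 and 46.2 CPM in ASIBEL, against 114 and 118 CPM in DMSO and 109 and 104 CPM in ASI. RBBP8, which starts the resection of break ends, was at 51.5 to 64.4 CPM with belinostat against 112 to 134 CPM without it. NBN, a subunit of the break sensor MRN, was at 39.3 to 55.2 CPM with belinostat against 94.8 to 127 CPM without it. The helicase BLM was at 14.0 to 18.2 CPM with belinostat against 35.6 to 40.8 CPM without it. The 1 member called higher, RAD51B, was at 0.44 ± 0.16 with overlapping libraries and lost its call without any of 6 single libraries. End joining genes had 9 of 16 lower and 3 higher, against 27.5% and 30.5%. SHLD2, a subunit of shieldin, which protects break ends from resection, had 8.21 and 10.3 CPM in BEL and 11.3 and 12.8 CPM in ASIBEL, against 41.0 and 41.5 CPM in DMSO and 42.5 and 36.4 CPM in ASI. POLQ, the polymerase of a backup end-joining route, fell by 0.91 ± 0.12, and RIF1, a partner of 53BP1, fell by 0.64 ± 0.09. XRCC5, a subunit of the Ku ring that binds break ends, had 236 and 236 CPM in BEL and 396 and 439 CPM in ASIBEL, against 621 and 439.9 CPM in DMSO and 651 and 632 CPM in ASI, with ASIBEL replicate 2 and DMSO replicate 2 almost touching. TP53BP1, which encodes 53BP1, was higher, with 389 and 362 CPM in BEL and 289 and 279 CPM in ASIBEL, against 179 and 174 CPM in DMSO and 175 and 177 CPM in ASI (log2 fold change 0.89 ± 0.11), and the ligase LIG4 rose by 0.47 ± 0.10.

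No tested inhibitor of cyclin-dependent kinases was called higher. CDKN1A, which encodes p21 and is known in many lines as a gene raised by deacetylase inhibitors, had 50.1 and 43.4 CPM in BEL and 87.3 and 83.4 CPM in ASIBEL, against 127 and 98.7 CPM in DMSO and 122 and 127 CPM in ASI. It fell by 0.90 ± 0.15 on the log2 scale (adjusted p = 0.00037), with -1.27 ± 0.14 in BEL over DMSO and -0.55 ± 0.14 in ASIBEL over ASI. Of 8 listed inhibitors of cyclin-dependent kinases 4 were tested and 3 fell (27.5% of all genes), the others being CDKN3 (-1.39 ± 0.11) and CDKN2D (-0.56 ± 0.14). CDKN1B was at 0.25 ± 0.10 (adjusted p = 0.0612), and it was called without DMSO replicate 1. Of 24 targets of p53 10 fell and 5 rose, where 27.5% and 30.5% of all genes did, and 2 or 3 rose when a library of BEL or ASIBEL or ASI replicate 2 was left out, and 1 under library size scaling. AEN, an exonuclease of the p53 response, had 20.8 and 22.4 CPM in BEL and 29.2 and 27.8 CPM in ASIBEL, against 79.1 and 74.9 CPM in DMSO and 82.5 and 76.0 CPM in ASI. MDM2, the ligase that degrades p53, was at 59.6 to 97.6 CPM with belinostat against 150.4 to 195 CPM without it. The damage sensor DDB2 was at 24.2 to 36.1 CPM with belinostat against 68.1 to 75.5 CPM without it. TP53INP1, a p53 cofactor, rose by 0.81 ± 0.12.

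**Figure D4:**
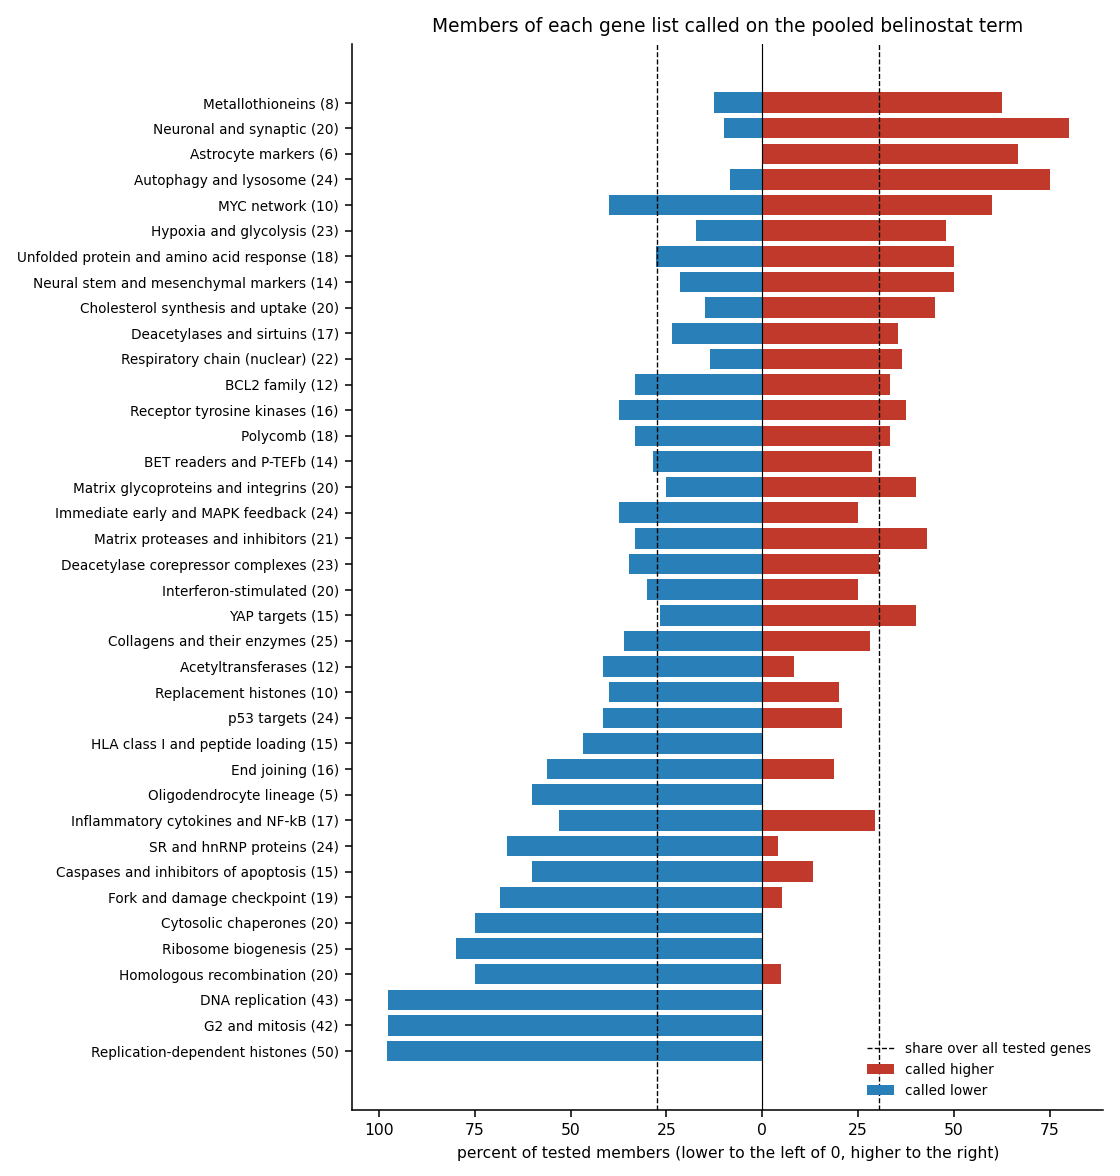
Percent of tested members of each gene list called higher (red, right of 0) or lower (blue, left of 0) on the pooled belinostat term, lists ordered by median log2 fold change, number tested in brackets, and dashed lines at the shares over all tested genes, 30.5% higher and 27.5% lower. The 3 lists at the bottom, histones, G2 and mitosis, and DNA replication, have nearly all members lower.

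Of 42 neuronal and synaptic genes 20 were tested, of which 16 were higher, 2 lower and 2 not called. Over all genes 30.5% were higher, but a gene could pass the filter on low counts through its treated libraries, so the count describes those 20 alone. UNC13A, which primes synaptic vesicles, gave 347 and 171 counts in BEL and 176 and 158 in ASIBEL, against 3 and 9 in DMSO and 2 and 0 in ASI. MAP2, a microtubule protein of dendrites, had 27.1 and 20.0 CPM in BEL and 19.4 and 22.4 CPM in ASIBEL, against 4.04 and 3.70 CPM in DMSO and 3.74 and 4.66 CPM in ASI. BEX1, a small adaptor of neurotrophin signalling, had 53.5 and 48.9 CPM in BEL and 59.1 and 56.7 CPM in ASIBEL, against 10.4 and 9.16 CPM in DMSO and 10.9 and 10.8 CPM in ASI. In both the treated libraries lay at 4 times the untreated ones or more. UCHL1, an abundant ubiquitin hydrolase of neurons, was lower, at 188 to 292 CPM with belinostat against 297 to 339.9 CPM without it, and STX1A, a syntaxin, fell by 0.86 ± 0.23 with overlapping libraries.

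Of 10 astrocyte markers 6 were tested and 4 were higher, a count with the same limit, beside 30.5% of all genes. GLUL, glutamine synthetase, was at 54.0 to 71.6 CPM with belinostat against 29.6 to 43.3 CPM without it. ALDOC, an aldolase of brain, was at 26.9 to 42.4 CPM with belinostat against 15.2 to 22.0 CPM without it. FABP7, a lipid carrier of radial glia, and SLC1A2, a glutamate transporter, rose by 3.75 ± 0.61 and 2.27 ± 0.40 but stayed at or under 4.74 CPM. Of 5 tested oligodendrocyte genes none was higher and 3 were lower (27.5% of all genes), among them the proteoglycan CSPG4 (34.2 to 63.3 CPM with belinostat against 119.8 to 146 CPM without it) and myelin basic protein MBP (2.03 to 5.63 CPM with belinostat against 7.17 to 11.9 CPM without it). Stem cell and mesenchymal markers had 7 of 14 higher and 3 lower, or 5 lower under library size scaling, beside 30.5% and 27.5% of all genes. NES, the intermediate filament nestin, had 38.5 and 26.3 CPM in BEL and 56.6 and 54.9 CPM in ASIBEL, against 4.95 and 5.75 CPM in DMSO and 7.37 and 6.11 CPM in ASI (log2 fold change 2.82 ± 0.17). CHI3L1, a secreted marker of mesenchymal glioblastoma, was at 6.15 to 21.6 CPM with belinostat against 0.604 to 1.66 CPM without it. SNAI2, a repressor of epithelial genes, rose by 0.49 ± 0.09 and STAT3 by 0.77 ± 0.10. FOSL1, an AP-1 subunit, fell by 1.70 ± 0.10, and PRRX1, described above, was also among the falls. The mesenchymal marker VIM was called lower too, at -1.12 ± 0.22 with overlapping libraries. Its change was -1.66 in BEL over DMSO and -0.57 in ASIBEL over ASI. Among markers of other cell types 2 were tested, and PECAM1, an adhesion protein of endothelium, had 20.6 and 19.0 CPM in BEL and 13.5 and 16.0 CPM in ASIBEL, against 5.05 and 4.97 CPM in DMSO and 3.74 and 5.97 CPM in ASI.

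Metallothioneins and zinc control genes, which bind or export metal, had 5 of 8 members higher, beside 30.5% of all genes. MT1X had 246 and 169 CPM in BEL and 488 and 502 CPM in ASIBEL, against 21.8 and 16.6 CPM in DMSO and 34.3 and 32.7 CPM in ASI, with the 2 ASIBEL libraries highest of all and ASI above DMSO (log2 fold change 3.67 ± 0.16). MT3 was at 16.3 to 20.5 CPM with belinostat against 2.73 to 7.28 CPM without it. MT1E was at 32.5 to 51.3 CPM with belinostat against 12.6 to 18.5 CPM without it. The zinc exporter SLC30A1 was at 20.3 to 30.5 CPM with belinostat against 8.38 to 12.9 CPM without it. These genes are close copies, except SLC30A1, and reads may be divided between them. MT2A was at -0.56 ± 0.21 with overlapping libraries, a call that did not survive leaving out either BEL library or DMSO replicate 2.

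Of 25 genes that build ribosomes 20 were lower and none higher, against 27.5% and 30.5% of all genes, with a median of -0.78. NCL, the nucleolar protein nucleolin, had 119 and 129.9 CPM in BEL and 210.2 and 211 CPM in ASIBEL, against 661 and 535 CPM in DMSO and 663 and 638 CPM in ASI. DDX21, a nucleolar helicase, had 78.4 and 73.2 CPM in BEL and 99.1 and 93.6 CPM in ASIBEL, against 294 and 258 CPM in DMSO and 294 and 297 CPM in ASI. The pseudouridine synthase DKC1 was at 26.6 to 38.5 CPM with belinostat against 78.2 to 103 CPM without it. UTP20 was at 26.4 to 40.4 CPM with belinostat against 72.3 to 88.6 CPM without it. MYC, known to drive such genes in growing cells, had 83.4 and 85.0 CPM in BEL and 109 and 92.4 CPM in ASIBEL, against 169 and 186 CPM in DMSO and 157 and 156 CPM in ASI, a fall of 0.86 ± 0.11 with all treated libraries below the untreated ones. Its partner MAX rose by 0.49 ± 0.12, and the antagonists MXI1 and MXD1 rose by 1.38 ± 0.13 and 0.63 ± 0.13. MGA, another MAX partner, fell by 0.72 ± 0.09, so that 6 of 10 network genes rose and 4 fell, beside 30.5% and 27.5% of all genes.

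Of 20 cytosolic and mitochondrial chaperones 15 were lower and none higher, against 27.5% and 30.5% of all genes. HSP90AA1, the inducible HSP90, had 746 and 637 CPM in BEL and 945 and 884 CPM in ASIBEL, against 1860.0 and 1526 CPM in DMSO and 1703 and 1535 CPM in ASI. HSPD1, the mitochondrial chaperonin, was at 196 to 355 CPM with belinostat against 481 to 688 CPM without it. FKBP4, an HSP90 partner, was at 36.0 to 64.6 CPM with belinostat against 89.9 to 124 CPM without it. CCT2, a chaperonin subunit, was at 129.8 to 173 CPM with belinostat against 233 to 266 CPM without it. ASIBEL libraries lay above BEL libraries in all 4. In the unfolded protein and amino acid response 9 of 18 were higher and 5 lower (30.5% and 27.5% of all genes), but only 4 or 5 were higher without 1 library of ASIBEL, without ASI replicate 2, BEL replicate 1 or DMSO replicate 2, and 4 under library size scaling. SEL1L, of the pathway that clears misfolded proteins, was at 331 to 539 CPM with belinostat against 215 to 277 CPM without it. The stress factor XBP1 was lower, at 28.2 to 51.9 CPM with belinostat against 85.0 to 109 CPM without it. HSPA5, the main chaperone of the endoplasmic reticulum, was at 675 to 1093 CPM with belinostat against 470.1 to 648 CPM without it with a gap of 0.06.

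Of 24 autophagy and lysosome genes 18 were higher, against 30.5% of all genes, and 2 were lower, 1 without either BEL library. Their median was 0.52. ULK1, the kinase that starts autophagy, had 105 and 104 CPM in BEL and 76.8 and 69.8 CPM in ASIBEL, against 33.2 and 44.6 CPM in DMSO and 29.3 and 36.1 CPM in ASI. GABARAPL1, a protein of the autophagosome membrane, had 36.8 and 31.8 CPM in BEL and 33.2 and 31.4 CPM in ASIBEL, against 13.4 and 16.1 CPM in DMSO and 16.5 and 15.6 CPM in ASI. TPP1, a lysosomal protease, was at 68.1 to 83.0 CPM with belinostat against 44.1 to 53.3 CPM without it. CTSB, another one, was at 613 to 994 CPM with belinostat against 401 to 557 CPM without it. CTSL was lower, at 61.8 to 95.4 CPM with belinostat against 108 to 133 CPM without it. No test was made of whether the list differs from other genes.

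Genes of hypoxia and glycolysis had 11 of 23 higher and 4 lower, beside 30.5% and 27.5% of all genes. NDRG1, a stress-induced gene of differentiation, had 3662 and 3162 CPM in BEL and 4274 and 4151 CPM in ASIBEL, against 1223 and 999 CPM in DMSO and 1239 and 1329 CPM in ASI. ADM, the peptide adrenomedullin, was at 495 to 540.3 CPM with belinostat against 208 to 241 CPM without it. SLC2A3, a glucose transporter, was at 216 to 242 CPM with belinostat against 88.9 to 114 CPM without it. BNIP3, which marks mitochondria for removal, was at 700.2 to 833 CPM with belinostat against 330.2 to 413 CPM without it. CA9, a carbonic anhydrase and a standard marker of hypoxia, moved the other way, at 137 to 275 CPM with belinostat against 312 to 461 CPM without it, and PFKL, a glycolytic kinase, fell by 1.01 ± 0.10. Cholesterol genes had 9 of 20 higher (30.5% of all genes) and 3 lower, or 5 lower under library size scaling. SREBF1, a master regulator of lipid synthesis, had 273 and 221 CPM in BEL and 193 and 167 CPM in ASIBEL, against 79.6 and 95.5 CPM in DMSO and 75.2 and 82.8 CPM in ASI. STARD4, a sterol carrier, was at 112 to 152 CPM with belinostat against 54.2 to 56.9 CPM without it. FDFT1, squalene synthase, was at 98.4 to 134 CPM with belinostat against 48.1 to 61.5 CPM without it. INSIG1, which restrains the pathway, fell by 0.60 ± 0.10. Of 22 nuclear genes of the respiratory chain 8 rose and 3 fell (30.5% and 27.5% of all genes), 5 rising without ASIBEL replicate 2 or under library size scaling. SDHD, the membrane anchor of complex II, rose by 0.60 ± 0.12.

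Splicing regulators of the SR and hnRNP families were mostly lower, 16 of 24 with 1 higher, against 27.5% and 30.5% of all genes, and a median of -0.48. SRSF7 had 70.7 and 70.6 CPM in BEL and 60.1 and 66.5 CPM in ASIBEL, against 139 and 139 CPM in DMSO and 139 and 144 CPM in ASI, and its libraries barely varied within each side. HNRNPL fell by 0.93 ± 0.10, HNRNPF fell by 0.94 ± 0.12 and SRSF3 fell by 0.75 ± 0.11. SRSF9 was the member that rose, by 0.38 ± 0.10.

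Besides FN1, the fibrillin FBN1, which forms microfibrils, had 412 and 391 CPM in BEL and 480.1 and 479 CPM in ASIBEL, against 1991 and 2057 CPM in DMSO and 1789.5 and 1822 CPM in ASI, the opposite of fibronectin (log2 fold change -2.12 ± 0.12). Of 20 matrix glycoproteins and integrins 8 rose and 5 fell, where 30.5% and 27.5% of all genes did. The integrin chains ITGAV and ITGB1, receptors for fibronectin, rose by 0.81 ± 0.10 and 0.66 ± 0.11. Of 25 collagens, collagen-processing genes and hyaluronan synthases 7 rose and 9 fell, not far from those shares. HAS2, described above, was among the falls. HAS1 was among the rises, but only at 0.31 ± 0.12 with overlapping libraries (edgeR adjusted p = 0.0456). Its change was 0.11 in BEL over DMSO and 0.52 in ASIBEL over ASI. SERPINH1, the collagen chaperone HSP47, had 28.4 and 35.1 CPM in BEL and 41.5 and 48.3 CPM in ASIBEL, against 145 and 125 CPM in DMSO and 149 and 153 CPM in ASI. COL4A2, a chain of basement membrane collagen, was at 2.34 to 4.74 CPM with belinostat against 10.6 to 12.2 CPM without it. COL6A1 was at 959 to 1207 CPM with belinostat against 1599 to 1801 CPM without it. LOXL4 and PLOD2, described above, were the members with the strongest call in the other direction.

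Proteases that cut the matrix and their inhibitors had 9 of 21 higher and 7 lower, beside 30.5% and 27.5% of all genes. ADAMTS1, a secreted metalloprotease, had 50.9 and 57.8 CPM in BEL and 37.9 and 45.8 CPM in ASIBEL, against 389 and 420.2 CPM in DMSO and 276 and 299 CPM in ASI (log2 fold change -2.84 ± 0.11). PLAU, urokinase, had 61.7 and 68.9 CPM in BEL and 60.4 and 58.4 CPM in ASIBEL, against 253 and 216 CPM in DMSO and 296 and 271 CPM in ASI. PLAT, the tissue plasminogen activator, moved the other way, at 10.5 to 16.0 CPM with belinostat against 3.49 to 4.71 CPM without it. TIMP3, an inhibitor bound to the matrix, was at 467 to 842 CPM with belinostat against 142 to 259 CPM without it. The membrane metalloproteases MMP15 and MMP16 rose by 2.31 ± 0.31 and 0.78 ± 0.10.

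YAP is a coactivator that responds to cell shape. A list of YAP, partner factors and targets had 6 of 15 members higher and 4 lower, beside 30.5% and 27.5% of all genes. CCN2, a matrix signalling protein, had 168 and 199.5 CPM in BEL and 116 and 118 CPM in ASIBEL, against 34.0 and 32.6 CPM in DMSO and 13.4 and 15.0 CPM in ASI. Here the untreated groups differed, ASI lying below DMSO, as they did for CCN1, at 54.2 to 104 CPM with belinostat against 23.4 to 53.5 CPM without it, with a gap of 0.02. AJUBA, a scaffold of the Hippo pathway, rose by 1.62 ± 0.14 and AMOTL2 by 1.01 ± 0.10, while the partner factor TEAD4 fell by 1.61 ± 0.16. YAP1, which encodes YAP, fell by 0.97 ± 0.12, and the partner factor TEAD1 rose by 0.30 ± 0.09. Of 24 immediate early genes and feedback genes of MAP kinase signalling 9 were lower and 6 higher, beside 27.5% and 30.5% of all genes. SPRY4, a Sprouty inhibitor, was at 11.7 to 13.8 CPM with belinostat against 35.5 to 41.9 CPM without it. SPRY2 was at 26.6 to 37.4 CPM with belinostat against 87.3 to 92.1 CPM without it. EGR2, an immediate early factor, was higher, at 48.4 to 62.6 CPM with belinostat against 20.6 to 23.4 CPM without it. Among receptor tyrosine kinases 6 of 16 rose and 6 fell, beside 30.5% and 27.5% of all genes. DDR1, a receptor for collagen, rose by 1.42 ± 0.11, while its relative DDR2 fell by 0.45 ± 0.10. The ephrin receptor EPHA2 rose by 0.95 ± 0.11 and TYRO3 fell by 1.35 ± 0.17.

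In the BCL2 family, which decides on cell death, 4 of 12 rose and 4 fell, near the 30.5% and 27.5% of all genes. BMF, a killer protein of the BH3-only kind known to respond to deacetylase inhibitors, had 23.1 and 15.8 CPM in BEL and 12 and 10.1 CPM in ASIBEL, against 1.72 and 1.85 CPM in DMSO and 2.41 and 3.49 CPM in ASI (log2 fold change 2.70 ± 0.30). BCL2L11, which encodes BIM, had 15.0 and 13.5 CPM in BEL and 9.34 and 7.43 CPM in ASIBEL, against 6.57 and 6.04 CPM in DMSO and 3.74 and 3.64 CPM in ASI, with a gap of 0.17. BCL2 and MCL1, which protect cells, fell by 1.38 ± 0.16 and by 0.66 ± 0.10. The other called members did not all follow this division by role. The protective BCL2L2 rose by 0.52 ± 0.09, and the killers BID and BAX fell by 0.70 ± 0.14 and 0.31 ± 0.12. The killer BBC3 rose by 0.93 ± 0.32, and the libraries of BAX and BBC3 overlapped. Of 15 caspases and inhibitors of apoptosis 9 fell and 2 rose (27.5% and 30.5% of all genes), 1 rising without ASIBEL replicate 1 or either BEL library. XIAP, which blocks caspases, had 31.4 and 32.2 CPM in BEL and 45.6 and 48.0 CPM in ASIBEL, against 115 and 85.4 CPM in DMSO and 104 and 103 CPM in ASI. BIRC5, survivin, had 40.4 and 33.5 CPM in BEL and 85.8 and 90.1 CPM in ASIBEL, against 278 and 166 CPM in DMSO and 268 and 271 CPM in ASI. BIRC2 was at 56.6 to 65.2 CPM with belinostat against 137 to 149 CPM without it. CASP9, the initiator caspase of the mitochondrial route, rose by 0.59 ± 0.16.

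Of 20 tested interferon-stimulated genes 5 rose and 6 fell, near the 30.5% and 27.5% of all genes. OAS3, a sensor of double-stranded RNA, was at 1.53 to 3.07 CPM with belinostat against 10.1 to 18.1 CPM without it. IRF7 was at 0.469 to 1.02 CPM with belinostat against 2.91 to 3.74 CPM without it. The related OASL was higher, at 17.0 to 30.3 CPM with belinostat against 5.65 to 7.97 CPM without it. IFI6 was higher too, at 16.9 to 26.7 CPM with belinostat against 6.24 to 7.13 CPM without it. In peptide presentation by HLA class I 7 of 15 fell and none rose, against 27.5% and 30.5% of all genes. ERAP1, which trims peptides, had 32.0 and 36.1 CPM in BEL and 36.5 and 39.3 CPM in ASIBEL, against 102 and 95.3 CPM in DMSO and 94.1 and 93.3 CPM in ASI. PSMB8, a subunit of the immunoproteasome, was at 7.74 to 10.5 CPM with belinostat against 20.1 to 30.5 CPM without it. Of 17 cytokine and NF-kB genes 9 fell and 5 rose, beside 27.5% and 30.5% of all genes. NFKB1, a subunit of NF-kB, had 14.5 and 17.1 CPM in BEL and 22.2 and 20.2 CPM in ASIBEL, against 54.1 and 53.5 CPM in DMSO and 57.6 and 54.0 CPM in ASI. IL1A, an interleukin kept in cells until they are damaged, had 17.6 and 16.1 CPM in BEL and 20.5 and 24.2 CPM in ASIBEL, against 2.42 and 2.34 CPM in DMSO and 3.26 and 4.51 CPM in ASI, opposite in direction to IL11. The feedback inhibitors NFKBIA and TNFAIP3 were at -0.87 ± 0.09 and 1.04 ± 0.11.

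The type of gene went along with direction. Among 11999 protein-coding genes 30.0% were higher and 31.4% lower, whereas among 600 long intergenic noncoding RNAs 41.5% were higher and 12.5% lower, and among 650 antisense genes 38.9% and 8.62%. In 252 sense-intronic genes 29.4% were higher and 2.38% lower, and the share of reads on this class, given above, was highest in BEL. Small nucleolar RNAs went the other way, with 5.66% of 53 higher and 37.7% lower. Noncoding genes mostly have few reads, and among the fifth of genes with the lowest mean level 33.6% were higher and 11.2% lower, so that class and level cannot be told apart here. Among coding genes the share called higher was 26.9% for genes under 10 kb and 40.2% for the 164 genes of 500 kb and over, with lower shares of 31.9% and 29.3%. Of 213 coding genes with a single exon, to which the histone genes belong, 16.9% were higher and 40.4% lower.

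**Figure D5:**
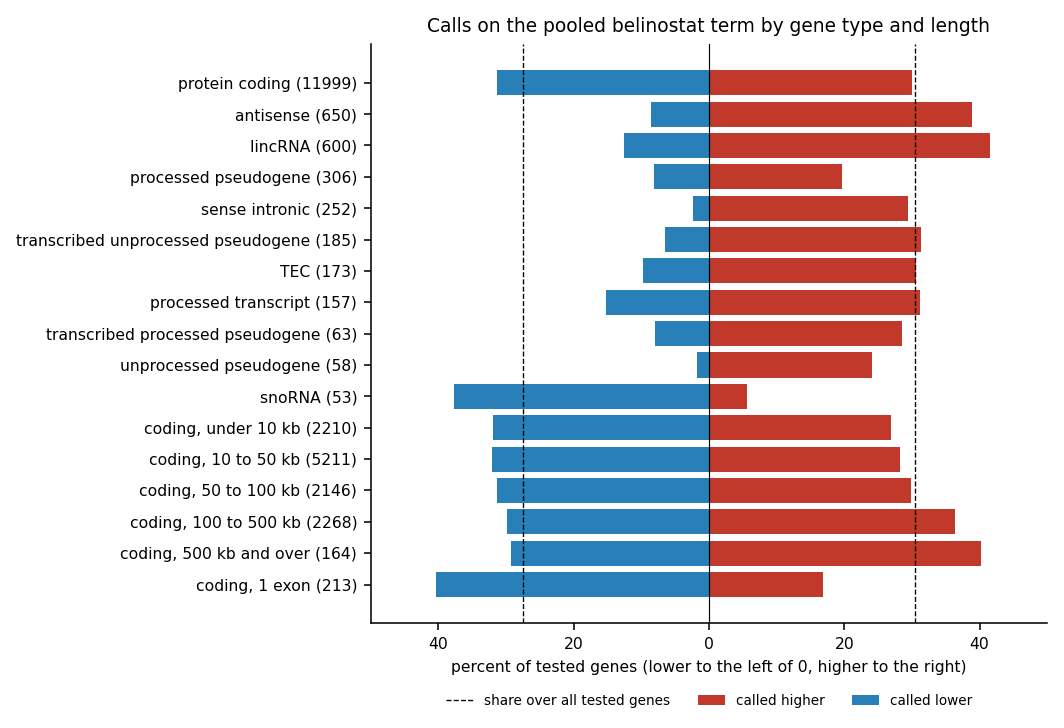
Percent of tested genes called higher (red, right of 0) or lower (blue, left of 0) on the pooled belinostat term by gene type and, for coding genes, by length and for single-exon genes, number tested in brackets, dashed lines at the shares over all genes. Long intergenic and antisense RNAs lean to the right, with 41.5% and 38.9% higher, and small nucleolar RNAs lean to the left with 37.7% lower.

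Genes at the edge of the separation rule show what a gap near 0 means. Just inside, on the rising side, SFXN3, a mitochondrial serine carrier, had 128 and 141 CPM in BEL and 106 and 93.1 CPM in ASIBEL, against 82.6 and 88.2 CPM in DMSO and 82.1 and 93.0 CPM in ASI, where ASIBEL replicate 2 and ASI replicate 2 nearly coincided. UNC13D, which primes secretory granules, was also just inside with 9.39 and 9.31 CPM in BEL and 2.67 and 2.05 CPM in ASIBEL, against 0.808 and 2.05 CPM in DMSO and 0.362 and 0.437 CPM in ASI, a large change in which DMSO replicate 2 met ASIBEL replicate 2. Just outside, RTN4RL2, a receptor for myelin inhibitors, had 7.27 and 7.62 CPM in BEL and 24.4 and 25.4 CPM in ASIBEL, against 5.86 and 4.09 CPM in DMSO and 6.40 and 7.28 CPM in ASI, high in ASIBEL and near the top of the untreated range in BEL. On the falling side RAD51C, a recombination gene, was just inside with 14.7 to 18.7 CPM with belinostat against 18.7 to 26.1 CPM without it, and EMP2, a membrane protein, was just outside with 34.6 and 36.9 CPM in BEL and 65.1 and 70.7 CPM in ASIBEL, against 109.8 and 70.7 CPM in DMSO and 108 and 122 CPM in ASI, where ASIBEL replicate 2 met DMSO replicate 2.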

How the data were processed

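The authors deposited raw read counts per gene for 8 libraries. Per the labels' protocols, these were stranded and made from total RNA after ribosomal depletion. The submitters' processing notes name cutadapt 1.16, STAR 2.7.0, featureCounts 1.6.3 and the build GRCh38. Annotation release and strand setting: not given in the sources used here.

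Here, genes were filtered with filterByExpr over the 4 groups, scaled with TMM and fitted in edgeR 4.0.16 (R 4.3.3) with a belinostat and an AsiDNA term, leaving 5 residual degrees of freedom. The quasi-likelihood F-test was adjusted by Benjamini-Hochberg over 14741 genes. A model with 1 coefficient per group gave the effects within each background and the interaction. The standard error was the absolute log2 fold change divided by the square root of F. Gaps used log2 CPM with a prior count of 2. Intervals and floors cover counting error only. Promoters came from RefSeq (GRCh38.p14). The steps were tested on simulated data.

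Named genes, besides those marked as chosen after their values were seen, were the 12 rises and 12 falls with the largest gap among called genes with a mean log2 CPM of at least 2, up to 4 noncoding ones in each direction, up to 4 members per list in its main direction and 2 in the other, 5 deacetylases and CDKN1A, and genes picked by interaction p or a gap nearest to 0. A few further list members were named outside these rules. Members, lists and rules were chosen with earlier results of these data known. Replicate numbers were not taken as pairs, since deviations of same-numbered libraries correlated between -0.37 and 0.23. Alternatives were other scalings, filters and stricter calls, DESeq2 1.42.0, other designs, a replicate block and leaving out each library. Protein-coding genes only and the sense-intronic term were chosen after seeing the data.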

Additional observations from a re-analysis of the deposited data

Results flagged for a closer look

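AAAS was singled out because its belinostat effect differed between cells with and without AsiDNA in a test of the difference itself, with an interaction of -1.42 on the log2 scale (edgeR adjusted p = 0.0439). The log2 fold change was 0.29 ± 0.14 in ASIBEL over ASI and 1.71 ± 0.13 in BEL over DMSO. The interaction lay between -1.24 and -1.53 under all alternatives run, its adjusted p between 1.1e-09 and 0.344. Groups of 2 libraries were too small to test for a library that stands apart from its replicates.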

How the results depend on the processing

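The counts on the pooled belinostat term stayed within 1.5 times of the main ones under every alternative but a 2-fold limit, which left 2206 higher and 1586 lower. They ran from 3549 to 4862 higher and from 3725 to 4372 lower when a library was left out. They were 4223 and 4098 with DESeq2, and 4739 and 4442 with the mean of the backgrounds from a fit of 4 groups. Without the AsiDNA term they were 3543 and 3169. With the replicate number as a block they were 4340 and 3907, and the pairing check does not make the numbers pairs. The majority of calls turned from the higher to the lower side under library size scaling, with no filter, among protein-coding genes only and without any single library of BEL or ASIBEL. No gene called on the pooled term changed direction among those named by rule. Of 5248 values for these 263 genes under the alternatives, 4984 stayed on their side of the threshold in the same direction, 262 lost the call and 2 gained it, those of HDAC1 under library size scaling and HDAC6 with group means. CDKN1B, named outside that rule, was called without DMSO replicate 1. The count of genes with an interaction was unstable: 1 in the fit reported, 10 with RLE factors, 157 with library size scaling, 1549 with no filter on low counts, 614 with DESeq2, 19 with the replicate block, 3 among protein-coding genes only, 238 with the sense-intronic term, 0 at an adjusted p under 0.01, and 0 to 5290 when a library was left out. The cause was not tested. Genes with few counts are limited by depth, since 3 counts equal up to 0.495 CPM.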
